A study of Macaca mulatta with 11 samples.

Results

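Genes of the p53 and retinoblastoma brakes on the cell cycle, with MDM2, the antagonist of p53, and LMNB1, a lamina protein lost in senescence, were measured in mesenchymal stem cells grown from rhesus monkey bone marrow, plastic-adherent precursors of bone, cartilage and fat. They comprised CDKN1A, CDKN1B, CDKN2A, CDKN2C, MDM2, GADD45A, RB1, LMNB1 and BTG2, and their probe sets were found by gene symbol in the array's annotation. Of the 9 genes 7 had a probe set under their symbol, 14 probe sets of 22215 in all, each with 1 symbol, where the whole array had 11963 such symbols. MDM2 had 5 of them, CDKN2A 3, RB1 2 and the others 1 each. CDKN2C and BTG2 had none under their symbols and are not analysed here.

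The series held 11 cultures, hybridised to 1 array each, from rhesus donors for which the labels name no treatment or genetic change. By their titles 4 arrays were fetal, 4 infant and 3 adult. The donors of fetal arrays 1 and 2 were at gestation day 120, whereas those of fetal arrays 3 and 4 were newborn despite the title. Infant arrays 1 to 4 came from donors aged 6, 6, 3 and 5 months, and adult arrays 1 to 3 from donors aged 7, 7 and 8 years. All cells had been grown in serum and collected before confluence at passage 2, so that each value describes dividing cultured cells and not marrow as it stood in the animal. Marrow was flushed from bones for the fetal group and aspirated under ketamine and local lidocaine for the infant and adult groups, so that collection method and fetal group cannot be told apart. Nothing states that arrays of 1 age came from different animals, and p-values therefore measure the spread between these cultures, which may be technical.

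The brakes act in a pair of linked pathways. In the first, DNA damage or other stress stabilises the transcription factor p53, which switches on CDKN1A (the protein p21, an inhibitor of cyclin-dependent kinases), GADD45A and its own antagonist MDM2, a ubiquitin ligase that marks p53 for destruction. In the second, the CDKN2A locus encodes p16, which blocks CDK4 and CDK6, and ARF, which restrains MDM2. Less active kinases leave the retinoblastoma protein RB1 bound to E2F factors, and the cell stays out of S phase. Cultured stromal cells are known to enter a lasting arrest, senescence, after many divisions, with more p16 and p21 and less of the nuclear lamina protein LMNB1.

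The arrays were alike in overall brightness, with median intensities between 164.9 and 169.6. Of the defining surface markers, ENG, THY1 and CD44 were brighter than 91.9%, 82.8% and 94.5% of all probe sets, whereas NT5E was dim, brighter than 20.4%. ALCAM, VCAM1, PDGFRB and ITGB1 were brighter than 50.8%, 60.0%, 94.9% and 97.7%. The list of these 8 markers had a mean log2 level between 8.52 and 8.70 in fetal, 8.40 and 8.70 in infant and 8.49 and 8.68 in adult arrays. The mean level of 9 plasma cell and B cell markers lay between 7.56 and 7.63 in fetal and between 7.51 and 7.68 in infant arrays, and reached 8.55 in adult array 2. The mean log2 deviation of that list from its average over the arrays was 0.58 and 0.79 in adult arrays 1 and 2 and between -0.25 and -0.06 in the other 9. Its light chain gene IGLC1 read 12.82 and 13.23 in those 2 arrays, 9.10 in adult array 3 and at most 8.30 in the others. The list did not rise as a whole. Adult minus fetal, the light chain genes IGLC1 and IGKC differed by 3.64 and 1.42. JCHAIN, brighter than 10.7% of probe sets, differed by 0.40, with 7.05 and 7.49 in adult arrays 1 and 2 and 6.97 in adult array 3. The median of the 9 genes was 0.08, with 6 positive and 3 negative (IGHM, CD79A and TNFRSF17). TNFRSF17 was dim, brighter than 2.10% of probe sets, so that a rise may be read weakly. Along the first principal component (23.1% of the variance), adult and infant arrays 1 and 2 lay between -20.5 and -16.1 and the other 7 arrays between 6.70 and 19.5. The part of these differences between arrays in the results below was not tested.

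None of the 14 probe sets passed the test between age groups. A probe set is the group of probes that reads 1 transcript, its value is the log2 of the deposited intensity, and an adjusted p is controlled for the share of false calls. In limma's test with adjustment over all 22215 probe sets, 0 of 14 passed an adjusted p of 0.05 between adult and fetal arrays (0.131% of all probe sets passed), 0 between adult and infant arrays (0.018% of all, or 4 probe sets, and 9 with the replicate number as a block, which left the 14 at 0) and 0 between infant and fetal arrays (0% of all). The F test over the 3 groups called 0 as well, where 0.036% of all passed. At an unadjusted p under 0.05 the 14 gave 0, 0 and 1 in these 3 comparisons and 0 in the F test, against 8.96%, 6.19%, 6.87% and 8.01% of all probe sets. The groups overlapped for all 14 probe sets in the 3 comparisons, whereas they did not for 8.08%, 4.98% and 3.34% of all. The median size of the log2 difference, sign ignored, between adult and fetal arrays was 0.11 for the 14 and 0.10 for all. Such small sets of arrays can miss modest changes, so the 95% intervals, which are not adjusted for the number of probe sets, are given with the genes.

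**Figure D1:**
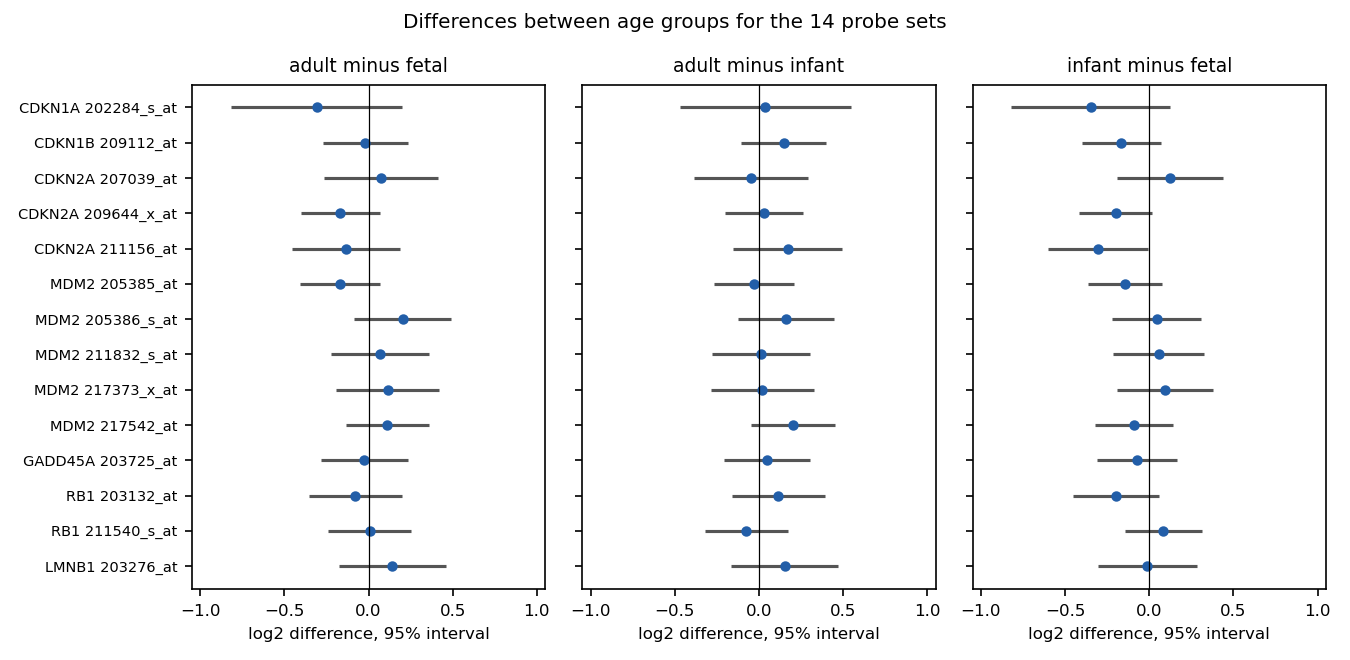
Log2 differences (points) with 95% intervals from limma (lines) for the 14 probe sets, in panels for adult minus fetal, adult minus infant and infant minus fetal arrays. All intervals but that of CDKN2A 211156_at between infant and fetal arrays include 0, and those of CDKN1A are the widest.

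CDKN1A, the p21 inhibitor through which p53 stops the cycle, was read brightly at every age. Its probe set 202284_s_at was brighter than 97.1% of all probe sets. The log2 intensity was 10.39, 10.17, 10.43 and 10.79 in fetal, 9.51, 9.81, 10.49 and 10.57 in infant and 9.82, 10.16 and 10.43 in adult arrays, each in the order of the array numbers. Infant arrays 1 and 2 and adult array 1 were the lowest, and fetal array 4 was the highest, 2.42-fold above infant array 1. Adult arrays averaged 10.14 ± 0.31 (SD, n = 3) against 10.44 ± 0.26 (SD, n = 4) in fetal arrays, a log2 difference of -0.31 (SE 0.24, interval -0.82 to 0.20) that did not pass (limma adjusted p = 0.767). Infant arrays averaged 10.10 ± 0.52 (SD, n = 4), and the infant minus fetal difference was -0.35 (SE 0.22, limma adjusted p = 0.811).

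The spread of CDKN1A within groups was large. Its residual SD of 0.39 exceeded that of 97.3% of probe sets, whereas the other 13 probe sets lay between 0.12 and 0.23. Its values also followed the division on the first component, with adult and infant arrays 1 and 2 at 10.16 or below and the other 7 arrays at 10.17 or above. Without those 4 arrays, adult array 3 stood alone in its group, beside infant arrays 3 and 4. The infant minus fetal difference was then 0.09 and the adult minus infant one -0.10, both opposite in sign to the values over all arrays. The sign of these 2 differences thus depended on the 4 arrays, while the adult minus fetal difference was -0.01 without them. Values from adult array 3 alone rest on 1 culture. Leaving out single arrays gave adult minus fetal differences from -0.46 without adult array 3 to -0.15 without adult array 1.

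GADD45A, a stress-induced protein that binds cell cycle and DNA repair factors, was also bright, above 95.8% of probe sets. Its residual SD of 0.15 exceeded that of 39.1% of probe sets. Its log2 intensity was 9.68, 9.73, 9.73 and 10.03 in fetal, 9.81, 9.62, 9.73 and 9.73 in infant and 9.63, 9.67 and 10.00 in adult arrays. Fetal array 4 and adult array 3 stood above the other 9 arrays, and the groups overlapped. Its range over the 11 arrays, 0.42, was the smallest of the 14. Fetal arrays 2 and 3 and infant arrays 3 and 4 held the identical value 9.73011, which may narrow its spread. The reason was not tested. Adult and fetal arrays averaged 9.77 ± 0.20 (SD, n = 3) and 9.79 ± 0.16 (SD, n = 4), a log2 difference of -0.02 (SE 0.12, interval -0.28 to 0.23, limma adjusted p = 0.979) whose sign turned with quantile normalization (0.08). A change in either direction beyond 1.21-fold lay outside that interval.

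**Figure D2:**
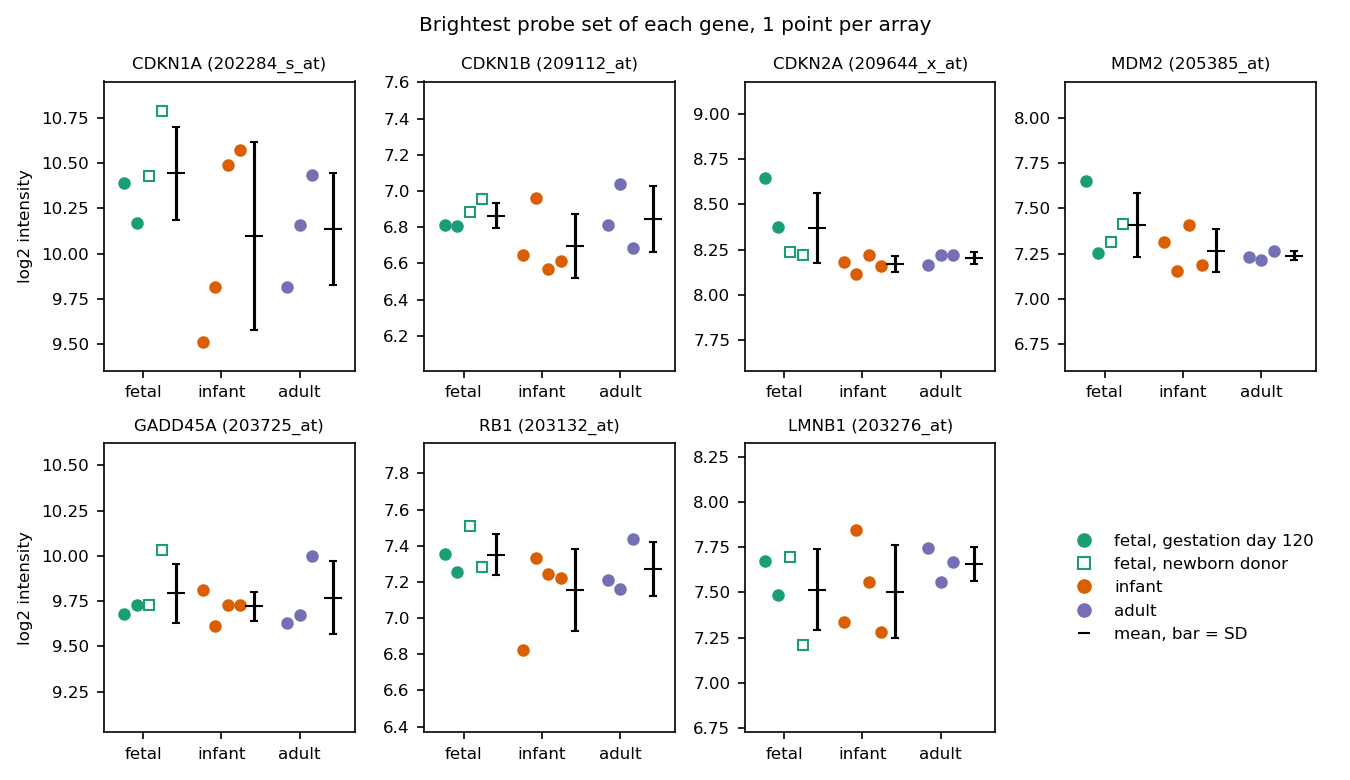
Log2 intensity of the brightest probe set of each of 7 genes in fetal, infant and adult arrays, 1 point per array, with the group mean and SD beside the points. Open squares mark arrays titled fetal from newborn donors. CDKN1A has the widest spread, from 9.51 to 10.79, and the groups overlap in every panel.

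MDM2, which limits p53, was read by 5 probe sets, all below the median of all probe sets (7.38), so that a change may be read weakly. The brightest, 205385_at, stood at 7.65, 7.25, 7.31 and 7.41 in fetal, 7.31, 7.15, 7.41 and 7.19 in infant and 7.23, 7.22 and 7.27 in adult arrays. Fetal array 1 was the highest, and the adult values lay within the range of the infant arrays. Adult minus fetal, it differed by -0.17 (SE 0.11, interval -0.41 to 0.07, limma adjusted p = 0.712), and by -0.09 without fetal array 1. The other 4 probe sets went the opposite way in that comparison, by 0.07 to 0.20, with limma adjusted p of at least 0.714. Of these, 205386_s_at stood at 6.67, 7.29 and 7.04 in adult arrays, against 6.79 to 6.80 in the 4 fetal arrays, and the adult spread covered the fetal values. The probe sets of MDM2 thus gave no common direction.

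CDKN2A is widely known for rising with age and with senescence. Its 3 probe sets do not separate the transcripts of p16 and ARF by anything given in the annotation used here, and 1, 209644_x_at, is of the class (x_at) whose probes can also match other sequences. That probe set, the brightest, read 8.64, 8.38, 8.24 and 8.22 in fetal, 8.18, 8.12, 8.22 and 8.16 in infant and 8.16, 8.22 and 8.22 in adult arrays. Both gestation day 120 arrays stood above the other 9, which lay within 8.12 to 8.24. Fetal array 4, infant array 3 and adult arrays 2 and 3 held the identical value 8.22262, which may narrow the spread. Adult arrays averaged 8.20 ± 0.03 (SD, n = 3) against 8.37 ± 0.20 (SD, n = 4) in fetal arrays, a log2 difference of -0.17 (SE 0.11, interval -0.40 to 0.07, limma adjusted p = 0.711). It was -0.08 without fetal array 1 and -0.31 without the newborn arrays, and passed in neither case.

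The other 2 probe sets of CDKN2A did not show the same order of arrays. Probe set 211156_at read 8.01, 7.77, 7.96 and 7.77 in fetal, 7.38, 7.50, 7.85 and 7.56 in infant and 7.56, 7.55 and 8.12 in adult arrays. It was highest in adult array 3 and lowest in infant array 1. It gave the only unadjusted p under 0.05 of the 14 in the comparisons of title groups, for infant minus fetal arrays, at a log2 difference of -0.30 (SE 0.14) that did not pass (limma adjusted p = 0.718). The dimmest, 207039_at, far below the median, ranged from 6.50 in infant array 4 to 7.23 in infant array 1, and differed by 0.08 between adult and fetal arrays (limma adjusted p = 0.937). The upper ends of the intervals for adult minus fetal arrays were 0.41, 0.07 and 0.19 for 207039_at, 209644_x_at and 211156_at, and the highest of them corresponds to 1.33-fold.

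CDKN1B encodes p27, an inhibitor linked to quiescence and regulated largely through protein turnover. Its probe set 209112_at was dim, brighter than 6.23% of probe sets. It read 6.81, 6.81, 6.88 and 6.95 in fetal, 6.65, 6.96, 6.57 and 6.61 in infant and 6.81, 7.04 and 6.68 in adult arrays. Infant arrays 1, 3 and 4 were the lowest of the 11 and adult array 2 the highest. Adult minus infant, the log2 difference was 0.15 (SE 0.12, interval -0.11 to 0.40, limma adjusted p = 0.884), and adult minus fetal it was -0.02 (SE 0.12, limma adjusted p = 0.983).

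RB1, the pocket protein on which the kinase inhibitors converge, had 2 probe sets, both below the median. On 203132_at the log2 intensity was 7.36, 7.25, 7.51 and 7.28 in fetal, 6.82, 7.33, 7.24 and 7.22 in infant and 7.21, 7.16 and 7.44 in adult arrays. Infant array 1 stood below all others. The other, 211540_s_at, read 7.07 in that array and was highest in infant array 2, at 7.37. Adult and fetal arrays averaged 7.27 ± 0.15 (SD, n = 3) and 7.35 ± 0.11 (SD, n = 4) on 203132_at, a log2 difference of -0.08 (SE 0.13, interval -0.36 to 0.20, limma adjusted p = 0.909) that ran from -0.16 to -0.03 as each array was left out, and 211540_s_at differed by 0.01 (limma adjusted p = 0.995).

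LMNB1, whose loss from the nuclear lamina is a sign of senescent cells, was read near the middle of the array, above 60.5% of probe sets. Its log2 intensity was 7.67, 7.49, 7.70 and 7.21 in fetal, 7.34, 7.84, 7.56 and 7.28 in infant and 7.75, 7.56 and 7.67 in adult arrays. Fetal array 4 and infant arrays 4 and 1 were the lowest, and no adult array was below 7.56. Adult arrays averaged 7.66 ± 0.09 (SD, n = 3) against 7.52 ± 0.22 (SD, n = 4) in fetal arrays, a log2 difference of 0.14 (SE 0.15, interval -0.18 to 0.46, limma adjusted p = 0.844). It was 0.04 without fetal array 4, 0.08 without both newborn arrays and 0.05 with the replicate number as a block. Adult minus infant it was 0.15 (SE 0.15, limma adjusted p = 0.902).

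**Figure D3:**
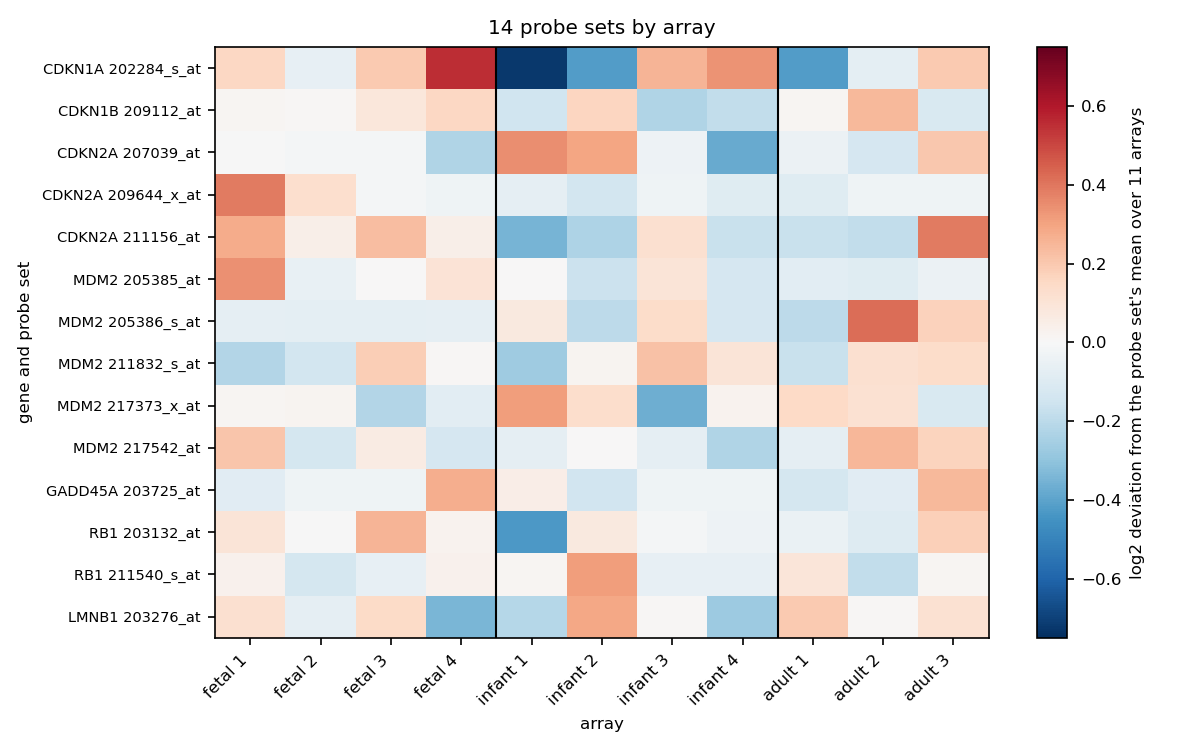
Log2 deviation of each of the 14 probe sets (rows) from its own mean over 11 arrays (columns, in the order fetal, infant, adult, with black lines between the groups). CDKN1A holds the lowest value, in infant array 1, and the probe sets of CDKN2A and of MDM2 differ among themselves in which arrays are high.

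Within the arrays titled fetal, newborn and gestation day 120 donors were set against each other with each stage given its own mean, 2 arrays each. None of the 14 probe sets passed (limma adjusted p of 1 for all), and 0% of all probe sets passed. At an unadjusted p under 0.05 there was 1 of the 14, against 1.81% of all. It was CDKN2A 209644_x_at, with 8.24 and 8.22 in newborn arrays against 8.64 and 8.38 in gestation day 120 arrays, a log2 difference of -0.28 (SE 0.13, interval -0.56 to -0.005). The 2 stages did not overlap for 6 of the 14, where 28.8% of all probe sets did not overlap.

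Fetal array 4, from a newborn donor, combined several of the outermost values. Among the 11 arrays it had the highest CDKN1A (10.79), the highest GADD45A (10.03) and the lowest LMNB1 (7.21). The part of dividing cells in these values was not tested. A list of 16 proliferation genes, among them the replication and mitosis genes MCM5, CDK1 and CCNB2, had a mean log2 deviation of -0.29 there, against 0.44 to 0.48 in fetal arrays 1 to 3. Of that list MKI67 and BUB1 lay above their own means in fetal array 4, at 8.15 and 7.77 against 7.94 and 7.67. The list's other genes lay below theirs. MKI67 had 4 probe sets and BUB1 had 5, and only the brightest of each is given here. Infant array 1 had the lowest CDKN1A of all arrays with a proliferation deviation of -0.32, and adult array 3 had the next highest GADD45A (10.00) with a deviation of -0.29 and LMNB1 at 7.67. The 3 arrays lowest in LMNB1, fetal 4, infant 4 and infant 1, were also the 3 lowest in the proliferation list, at -0.29, -0.43 and -0.32, with adult array 3 next to fetal 4. A single culture has no replicate, and these are descriptions of arrays and not of an age.

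**Figure D4:**
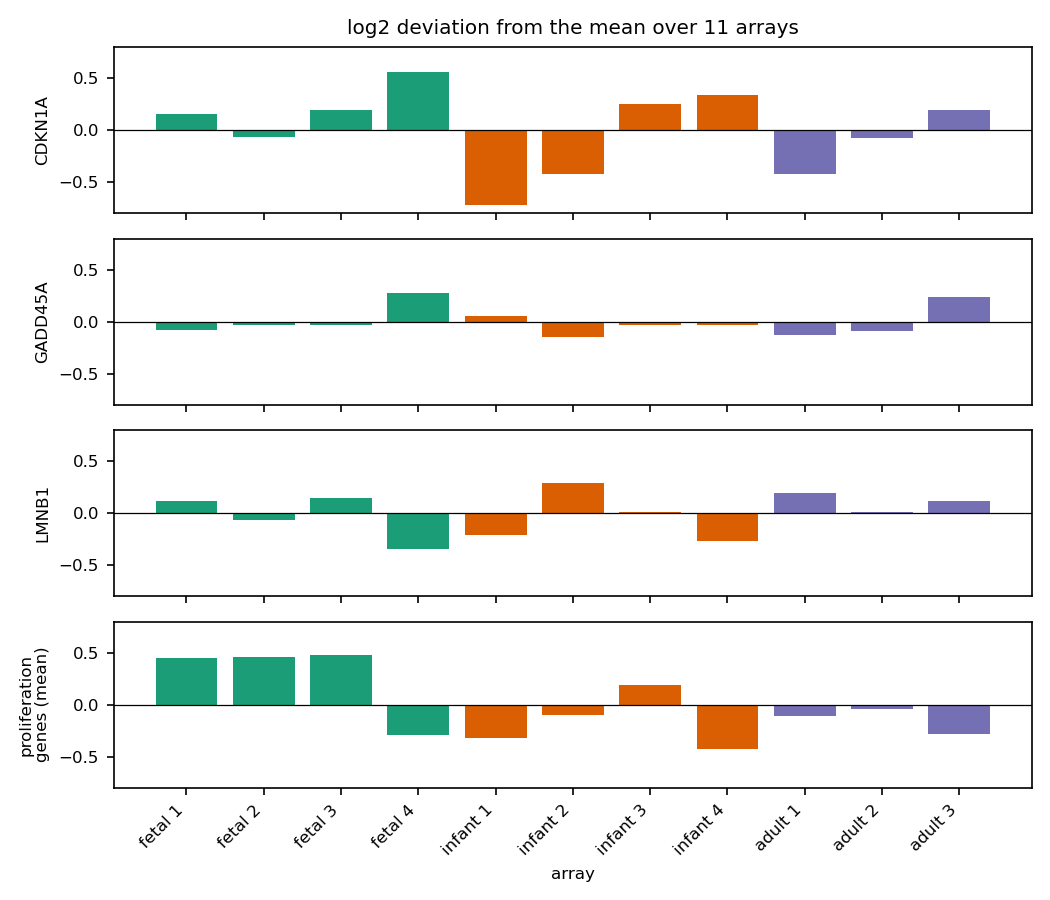
Log2 deviation from the mean over 11 arrays for CDKN1A, GADD45A, LMNB1 and the mean of 16 proliferation genes, 1 bar per array, in the order fetal, infant, adult. Fetal array 4 is highest for CDKN1A and GADD45A and lowest for LMNB1, and its proliferation mean lies at -0.29.

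Correlations over the 11 arrays were computed for 5 pairs of brightest probe sets, with permutation p-values from 100000 resamples adjusted over the 5, and none passed. CDKN1A and GADD45A, both p53 targets, gave Pearson's r = 0.47 (permutation p = 0.139, adjusted 0.401) and Spearman's rho = 0.55 (permutation p = 0.081, adjusted 0.243). Without infant arrays 1 and 2, the farthest from the median of CDKN1A, r was 0.66, and over the 7 arrays left without adult and infant arrays 1 and 2 it was 0.56. CDKN1A and MDM2 gave r = 0.36 (permutation p = 0.284, adjusted 0.401) and rho = 0.36 (permutation p = 0.269, adjusted 0.269), with r = 0.34 without infant arrays 1 and 2 and 0.08 over the 7 arrays. MDM2 and GADD45A gave r = 0.17 (permutation p = 0.606, adjusted 0.606) and rho = 0.52 (permutation p = 0.101, adjusted 0.243), with r = 0.34 without fetal arrays 1 and 4 and -0.17 over the 7 arrays. Of deviations from the age group means, r was 0.44 for CDKN1A with GADD45A, 0.16 for CDKN1A with MDM2 and 0.10 for MDM2 with GADD45A. With 11 arrays, a weak relation among these p53 targets could be missed.

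LMNB1 was set against TOP2A, the topoisomerase of dividing cells, which gave r = 0.42 (permutation p = 0.197, adjusted 0.401) and rho = 0.42 (permutation p = 0.194, adjusted 0.243). Without fetal array 4 and infant array 2, the farthest from the median of LMNB1, r was 0.73, and over the 7 arrays 0.76. Of deviations from the age group means it was 0.68. LMNB1 and CDKN1A gave r = -0.33 (permutation p = 0.321, adjusted 0.401) and rho = -0.47 (permutation p = 0.147, adjusted 0.243). Without the same 2 arrays r was 0.12, while leaving out each array singly gave r from -0.75 to -0.09. The negative sign was thus lost without both arrays but not without either alone. Over the 7 arrays it was -0.62, and of deviations from group means it was -0.34.

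The neighbouring steps of both pathways were described by 8 lists of 107 genes, of which 96 had a probe set with 1 symbol. None of the 96 passed between adult and fetal, adult and infant or infant and fetal arrays (limma, lowest adjusted p = 0.217, 0.711 and 0.497). At an unadjusted p under 0.05 there were 18 of 96 (18.75%) between adult and fetal arrays, of which 5 were proliferation genes, 3 between adult and infant arrays, none of them a proliferation gene, and 11 between infant and fetal arrays, of which 6 were. The corresponding shares of all probe sets were 8.96%, 6.19% and 6.87%. Fewer dividing cells and less RNA of these genes per cell cannot be told apart in such bulk samples.

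Of the other inhibitors, CDKN2B, which encodes p15 and lies next to CDKN2A in the rhesus assembly T2T-MMU8v2.0, read 6.88, 6.97 and 6.93 in adult against 7.20, 7.04, 7.42 and 7.21 in fetal arrays. The groups did not overlap, and the log2 difference of -0.29 (SE 0.13) did not pass (limma adjusted p = 0.526). CDKN2D (p19) and CDKN1C (p57) differed by -0.10 and -0.02. The median adult minus fetal difference of these 3 was -0.10, beside 0.01 for all probe sets.

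The list of kinases and regulators upstream of p53 had 9 measured genes and a median difference of -0.14 between adult and fetal arrays. USP7, which removes ubiquitin from p53 and MDM2, had the smallest p, at -0.28 (SE 0.13, limma adjusted p = 0.586). DAXX, a binding partner of MDM2, differed by -0.23. The list's median was 0.01 without adult and infant arrays 1 and 2, where adult array 3 stood alone in its group.

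Among 20 other p53 target genes the median adult minus fetal difference was 0.04, with 11 positive and 9 negative and none passing. CCNG1, cyclin G1, was 7.49, 7.60 and 7.24 in adult against 7.02, 7.11, 6.83 and 6.96 in fetal arrays. All adult values lay above the fetal ones, at a difference of 0.46 (SE 0.13, limma adjusted p = 0.234). XPC, a DNA damage sensor of excision repair, and PLK2, a stress-induced kinase, differed by -0.32 and -0.48 (limma adjusted p = 0.395 and 0.499). Targets of p53 therefore lay on both sides of 0, with a median whose sign turned without adult array 3 (-0.07).

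GADD45 and BTG/TOB relatives of GADD45A and BTG2, 6 genes, had a median adult minus fetal difference of -0.03. In the infant minus fetal comparison all 6 differences were positive, with a median of 0.14, and none passed. BTG3, an antiproliferative protein, read 10.37, 10.39, 10.53 and 11.08 in infant against 9.92, 10.15, 10.35 and 10.16 in fetal arrays. These groups did not overlap, at a difference of 0.45 (SE 0.15, limma adjusted p = 0.612). The other 2 probe sets of BTG3 differed by 0.27 and 0.01.

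The list of RB family members, E2F factors, cyclins and kinases of G1 had a median difference of -0.04 over 20 genes between adult and fetal arrays. CCND1, cyclin D1, whose kinases p16 blocks, had the largest one, at 8.80, 9.12 and 9.92 in adult against 9.63, 10.56, 10.18 and 10.84 in fetal arrays. The groups overlapped through adult array 3 and fetal array 1, and the difference of -1.02 (SE 0.28) did not pass (limma adjusted p = 0.217). Its other probe set differed by -0.29. SKP2, the ligase subunit that targets p27, and CDK6 differed by -0.44 and 0.31 (limma adjusted p = 0.305 and 0.501).

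Lamina and inner nuclear membrane genes, 10 in number, had a median difference of -0.12, with 8 of 10 negative between adult and fetal arrays, and none passed. LMNA, LMNB2 and BANF1 differed by -0.62, -0.41 and -0.70 (limma adjusted p = 0.423, 0.440 and 0.321), where LMNB1 differed by 0.14. The other 3 probe sets of LMNA differed by -0.53, -0.22 and -0.13. Among regulators of the INK4 locus and other senescence genes, 12 measured, 6 differences were positive and 6 negative, with HMGB1, HMGB2 and ID1 at -0.76, -0.74 and -0.47 (limma adjusted p = 0.340, 0.349 and 0.304). HMGB1 and HMGB2 are chromatin proteins known to be lost from senescent nuclei, and ID1 represses p16.

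The 16 proliferation genes had a median adult minus fetal difference of -0.32, with 15 of 16 negative, and none passed. CCNB2, MCM5 and CDK1 differed by -0.82, -0.92 and -0.79 (limma adjusted p = 0.339, 0.358 and 0.402), whereas MKI67 and TOP2A differed by -0.05 and -0.23. Infant minus fetal, the list's median was -0.46 with all 16 negative. Adult minus infant, it was 0.05 with 10 positive and 6 negative, so that adult arrays were not lower than infant ones. By array the list's mean deviation was 0.44, 0.46, 0.48 and -0.29 in fetal, -0.32, -0.10, 0.19 and -0.43 in infant and -0.11, -0.04 and -0.29 in adult arrays. Fetal array 4 thus lay level with adult array 3 and apart from fetal arrays 1 to 3.

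**Figure D5:**
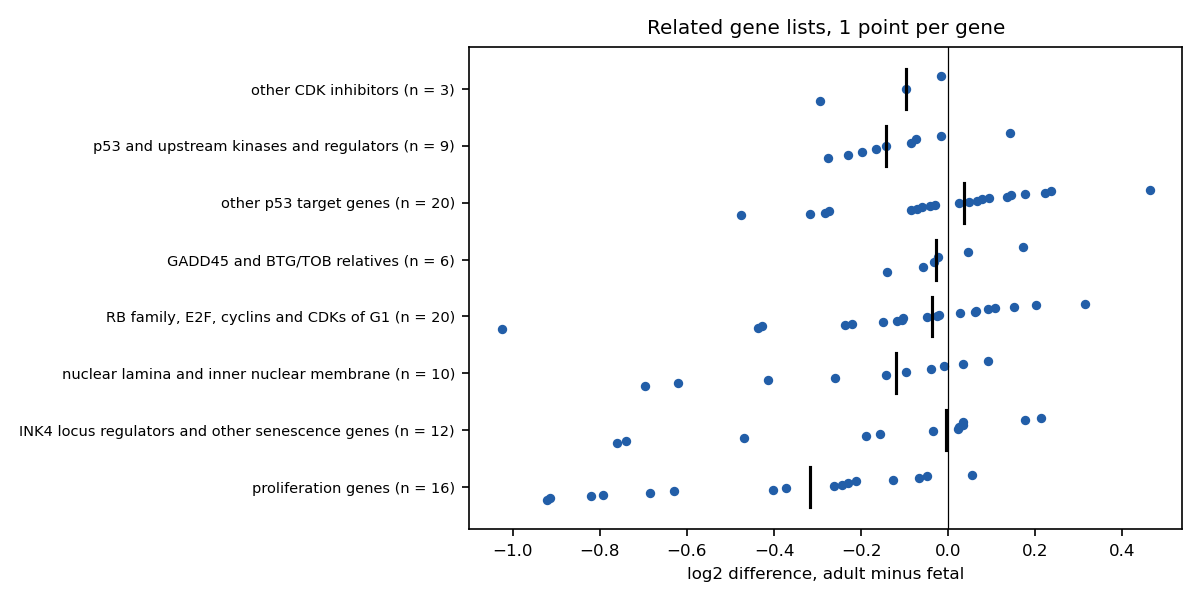
Log2 difference, adult minus fetal, of each measured gene (points) in 8 related lists, with the median of each list as a black bar. Medians lie between -0.32 for proliferation genes and 0.04 for other p53 targets, and no gene passed the test over all probe sets.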

How the data were processed

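The file holds a linear intensity for each probe set, which the authors made with RMA, per the submitters' processing notes (no version named). By that method background is removed, arrays are brought to a common distribution and probes are summarised. Differences in total brightness between arrays are thereby largely removed, yet the highest intensity of an array still ran from 27962.4 to 36519.1. The probe annotation is that of a human array, so monkey RNA was read by human probes. Levels were set against other probe sets only to say how bright a probe set was. The number of arrays limits the precision.

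After log2 transformation, the 3 title groups of the 11 arrays were fitted with limma 3.58.1 (lmFit, eBayes, R 4.3.3), with two-sided contrasts, an F test and Benjamini-Hochberg adjustment over 22215 probe sets. Another fit had 1 mean per stage. The fits were tested on simulated data. The members, lists and pairs were chosen with earlier results of these data known. The text accounts for all member probe sets. Of each other list the brightest probe set with 1 symbol stood for a gene, and the text names up to 3 genes of smallest p between adult and fetal arrays, with TOP2A and cell type markers. A gene that this rule would name is not reported here. MKI67 and BUB1 were named after their values were seen. Of all probe sets 19065 had 1 symbol, 1043 several and 2107 none. Alternatives were quantile normalization, median centring, a filter on dim probe sets, an intensity trend, array weights, a replicate block, 2 groups only, each array left out, newborn arrays left out, and, chosen after seeing the data, adult and infant arrays 1 and 2 left out. The last setting left adult array 3 alone in its group, beside infant arrays 3 and 4. Of 9 planned pairs 5 could be correlated.

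Replicate numbers in the titles were checked as pairs. Deviations from group means of same-numbered adult and infant arrays correlated at 0.14, 0.13 and 0.20, all above 0.1, a hint from the data that cannot be told from the division on the first component. Between adult and fetal arrays they were 0.07, 0.04 and -0.10, and between infant and fetal arrays 0.12, 0.01, 0.04 and 0.28.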

Additional observations from a re-analysis of the deposited data

Results flagged for a closer look

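Within the fetal arrays, array 4, from a newborn donor, lay apart from the other 3 in 4 measures. GADD45A 203725_at read 10.03 there, against 9.68 to 9.73 in the others. CDKN2A 207039_at, a dim probe set, read 6.65 there, against 6.86 to 6.87. The mean log2 deviation of the GADD45 and BTG/TOB relatives was 0.18 in that array, against -0.17 to -0.13, and that of the proliferation genes was -0.29, against 0.44 to 0.48. Among infant arrays, array 3 lay apart in the lamina and inner nuclear membrane genes, with a mean deviation of 0.14 against -0.10 to -0.07. In each case the gap to the nearest array, as a share of the group's range, exceeded Dixon's 95% critical value for 4 arrays. Of 54 groups tested 5 were marked in this way, and chance alone marks about 1 in 20. The cause was not tested.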

How the results depend on the processing

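None of the 14 probe sets passed in any comparison under any alternative. Of 569 alternative values of the 28 differences of the 7 genes, 518 kept their direction and 51 turned, in 20 of the 28. The cause of the turns was not tested. Several settings leave a difference of group means unchanged and could not turn it. These were the intensity trend, the filter, 2 groups only, and leaving out an array of a group not compared. Their values count among the 518. The filter on dim probe sets left genes below the median without a value. The small number of arrays limits the precision, and probe sets near the dim end read change weakly. Of 260 list medians 17 moved.

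Counts over all probe sets depended on the setting. Between adult and fetal arrays 29 became 47 with an intensity trend, 120 with array weights, 16 with only the 2 groups, 65 without adult and infant arrays 1 and 2, and 4 to 153 leaving out each array. Between adult and infant arrays 4 became 10 with weights, 2 with only the 2 groups, 10 without those 4 arrays, and 0 to 55 leaving out each array. Between infant and fetal arrays 0, with 1527 at an unadjusted p under 0.05, became 1 with the filter, 1 with weights, 5 without newborn arrays, and 0 to 21 leaving out each array. The F test's 8 became 26 with a trend, 63 with weights, 16 without newborn arrays, and 2 to 95 leaving out each array. Between newborn and gestation day 120 arrays the 0, with 402 unadjusted, was 0 to 2 leaving out each array.

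With the replicate block the counts were 221 between adult and fetal, 9 between adult and infant, 2 between infant and fetal and 2 between newborn and gestation day 120 arrays, and 101 in the F test. Under the block GADD45A differed by 0.018 between adult and fetal arrays. Between newborn and gestation day 120 arrays CDKN1A, RB1 and LMNB1 differed by -0.43, -0.075 and 0.048. Fetal arrays 1 and 2 were the gestation day 120 ones, and 3 and 4 the newborn ones. For these stages the block therefore draws on infant and adult arrays of the same numbers. Its values and count there cannot be told from differences among those arrays. The block changed no call of the 14. Only adult and infant numbers met the rule for pairing.

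Other turned differences are given as adult minus fetal first. Quantile normalization gave GADD45A 0.076. Leaving out newborn arrays gave CDKN1B 0.036 and GADD45A 0.065, and infant minus fetal GADD45A 0.018. Without adult and infant arrays 1 and 2, chosen after seeing the data, GADD45A was 0.21 and RB1 0.089, CDKN1A was -0.099 adult minus infant and 0.087 infant minus fetal, and r of MDM2 with GADD45A was -0.17. That setting left adult array 3 alone in its group. Array weights gave CDKN1A -0.11 adult minus infant and LMNB1 0.00088 infant minus fetal.

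Other probe sets also turned. CDKN2A 207039_at gave 0.076, -0.047 adult minus infant and 0.12 infant minus fetal, and RB1 211540_s_at gave 0.0077, -0.075 and 0.083 in the same order. MDM2 gave 0.20, 0.069, 0.11 and 0.11 adult minus fetal for its other 4 probe sets, 0.16, 0.012, 0.021 and 0.20 adult minus infant, 0.043, 0.057 and 0.093 infant minus fetal, and 0.00057 and 0.27 newborn minus gestation day 120.

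Leaving out each array gave adult minus fetal ranges of -0.12 to 0.062 for CDKN1B and -0.14 to 0.056 for GADD45A. Adult minus infant they were -0.16 to 0.20 for CDKN1A, -0.065 to 0.021 for MDM2 and -0.070 to 0.12 for GADD45A. Infant minus fetal they were -0.11 to 0.0095 for GADD45A and -0.12 to 0.064 for LMNB1. Newborn minus gestation day 120 they were -0.29 to 0.11 for MDM2, -0.022 to 0.21 for RB1 and -0.37 to 0.12 for LMNB1.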
